A study of Mus musculus with 32 samples.

Results

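The 58 clustered protocadherin genes of the mouse were followed through RNA polymerase II (Pol II) chromatin immunoprecipitation profiles of brain, heart, kidney and liver. They were chosen by symbol alone, as every Pcdha, Pcdhac, Pcdhb, Pcdhga, Pcdhgb and Pcdhgc gene of the deposited table, and make up 58 of its 27179 genes. There were 14 alpha, 22 beta and 22 gamma members, among them the 5 C-type genes Pcdhac1, Pcdhac2, Pcdhgc3, Pcdhgc4 and Pcdhgc5. All 58 were among the 26758 genes that passed the filter on low values.

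Organs of mice were either kept as formalin-fixed paraffin blocks (FFPE) or flash frozen. Frozen cores were crosslinked with formaldehyde before shearing, whereas FFPE sections were freed of paraffin and extracted with heat; both were sheared by ultrasound, and chromatin was pulled down through the Pol II C-terminal domain. The labels list 2 Pol II libraries and 2 inputs for each organ and preservation, 32 in all, and the table holds 1 Pol II profile for each, giving 8 profiles: FFPE and frozen brain, then both kinds of heart, kidney and liver. The sources used here give no strain, genotype, age or number of mice. Each organ is a mixture of cell types, so that fewer neurons and less polymerase per neuron cannot be told apart.

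Protocadherins are cell adhesion proteins with extracellular cadherin repeats, and those of the clusters bind copies of themselves on neighbouring cells. In the alpha and gamma clusters each gene consists of its own large first exon, with its own promoter, spliced to constant exons that all genes of the cluster share, whereas beta genes are single exons. A neuron uses a small and largely random choice of the variable alpha, beta and gamma genes, which gives it a surface identity used in dendrite self-avoidance and axon spacing. The C-type genes stand nearest the constant exons and are known to be used more uniformly, Pcdhac2 above all in serotonergic neurons. CTCF and cohesin hold the distant enhancers to the chosen promoters.

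The 3 clusters lie one after the other on chromosome 18 of GRCm38 (mm10). The alpha genes cover chr18:36930285-37188897, the beta genes chr18:37264998-37521419 and the gamma genes chr18:37661775-37841873. Every alpha gene overlaps the 13 other alpha genes and every gamma gene the 21 other gamma genes, while no beta gene overlaps another member. How reads in the shared exons were given to these genes is not stated in the sources used here, so values of alpha and gamma genes are uncertain in that respect. The longer gene Gm37013, which starts beside Pcdha4 and runs to the end of the gamma cluster (chr18:36952648-37841873), had 0 reads in all 8 profiles. Pcdhgb8 is annotated as a transcribed pseudogene.

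The profiles held 864816 (FFPE liver) to 2178329 (frozen liver) reads in genes. Mitochondrial genes took 7.73% to 25.6% of them. The members' median was 36.5 reads in FFPE brain and 35 in frozen brain. It was 12.5 and 19 in FFPE and frozen heart, 18.5 and 24.5 in FFPE and frozen kidney, and 12.5 and 19.5 in FFPE and frozen liver. Counts this small limit what can be called for a single member.

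Brain carried more Pol II reads over each cluster than any other organ, with the highest ratio over the alpha cluster. Summed over the alpha genes, FFPE and frozen brain had 243 and 221 reads per 1000000 of the scaled total that the deposited values use (RPM), against 164 and 113 in FFPE and frozen heart, 97.1 and 150 in kidney and 150 and 90.5 in liver. The beta sums were 403 and 388 RPM in FFPE and frozen brain, against 300 and 270 in heart, 294 and 346 in kidney and 328 and 272 in liver. The gamma sums were 624 and 621 RPM in FFPE and frozen brain, against 581 and 567 in heart, 487 and 370 in kidney and 399 and 285 in liver. In all 3 clusters both brain profiles lay above all 6 others. Over the gamma cluster heart came close to brain, with an organ mean of 574 RPM beside 623 in brain, while kidney at 429 and liver at 342 overlapped each other.

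**Figure D1:**
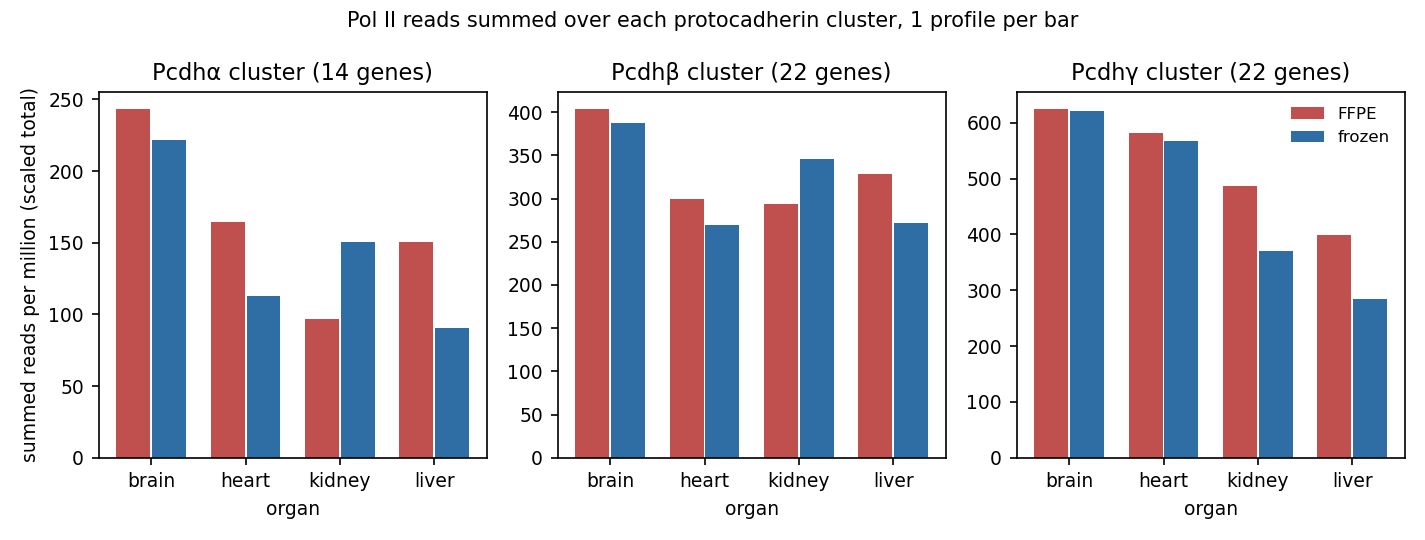
Summed Pol II reads (RPM) over the alpha, beta and gamma protocadherin genes in each of the 8 profiles, with 1 bar per profile. Both brain bars are higher than every other organ's bars in each cluster, and the heart bars come closest to brain over the gamma genes.

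As means, the alpha sum was 232 ± 15.3 RPM in brain and 128 ± 31.3 in the other organs (SD, n = 2 and 6), 1.82 times as high. The beta sum was 395 ± 10.8 in brain and 302 ± 30.5 in the other organs, 1.31 times as high, and the gamma sum 623 ± 1.81 in brain and 448 ± 117 in the other organs, 1.39 times as high. As a difference the gamma gap was the widest. With the reads of each cluster merged into 1 feature and fitted in limma with all other genes, the alpha cluster passed in brain. Its log2 difference was 0.90 ± 0.24 (SE, limma adjusted p 0.022). The beta cluster at 0.40 ± 0.22 and the gamma cluster at 0.52 ± 0.23 did not pass (limma adjusted p 0.353 and 0.216). The merged fit was not repeated with single profiles left out. Olfactory receptor genes, known to be used in olfactory neurons, moved in part with these sums. The 903 of them with a length of 900 to 1100 bases, picked after the values were seen, summed to 4060 and 3968 RPM in FFPE and frozen brain, against 2860 to 4306 in the other profiles, 1.18 times as high on average. Relative to the receptor sum, the alpha sum was still 1.54 times as high in brain, 0.0558 to 0.0598 of it against 0.0294 to 0.0488 in the other profiles. The beta sum was then 1.10 times as high, at 0.0977 to 0.0993 in brain against 0.0803 to 0.0952 elsewhere. The gamma sum overlapped, at 0.154 to 0.157 in brain against 0.0860 to 0.198 elsewhere, with both heart profiles and FFPE kidney above both brain profiles. The part of this background in the brain result was not tested.

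Gene by gene, brain was set against the mean of heart, kidney and liver in limma, fitted over all 26758 genes with preservation as a term. At a Benjamini-Hochberg adjusted p under 0.05, 2 of 58 members were called higher in brain, where 3.43% of all genes tested were, and none was called lower, where 4.02% were. At an unadjusted p under 0.05 there were 12 of the 58, where 4886 of all 26758 genes were. The called members, Pcdhac2 and Pcdhgc5, are both C-type genes. The count of 2 became 0 without FFPE brain or frozen brain, 1 without frozen heart or FFPE kidney, 4 without frozen liver, and 11 without both FFPE heart and FFPE liver, the profiles of fewest reads. The share of members called is therefore near the background, but the fitted differences lay mostly on one side: 53 of 58 were above 0, compared with 50.4% of all genes, and their median was 0.63 on the log2 scale against 0.01 for all genes. For the olfactory receptors 68.7% were above 0 with a median of 0.40, and 0 were called higher.

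By cluster, the median brain difference was 0.89 over the 14 alpha genes, 13 of them above 0, 0.52 over the 22 beta genes, 20 of them above 0, and 0.53 over the 22 gamma genes, also 20 above 0. The 5 C-type genes had a median of 1.10. With both brain profiles above all 6 others there were 9 members, where 8.40% of all genes were like that: Pcdha1, Pcdhac2, Pcdhb8, Pcdhb15, Pcdhb17, Pcdhb20, Pcdhgb4, Pcdhgc4 and Pcdhgc5. Outside Pcdha4, which had almost no reads, the members below 0 in the fit were Pcdhb2 at -0.57, Pcdhgb7 at -0.23, Pcdhga1 at -0.18 and Pcdhb10 at -0.01, none of them called.

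**Figure D2:**
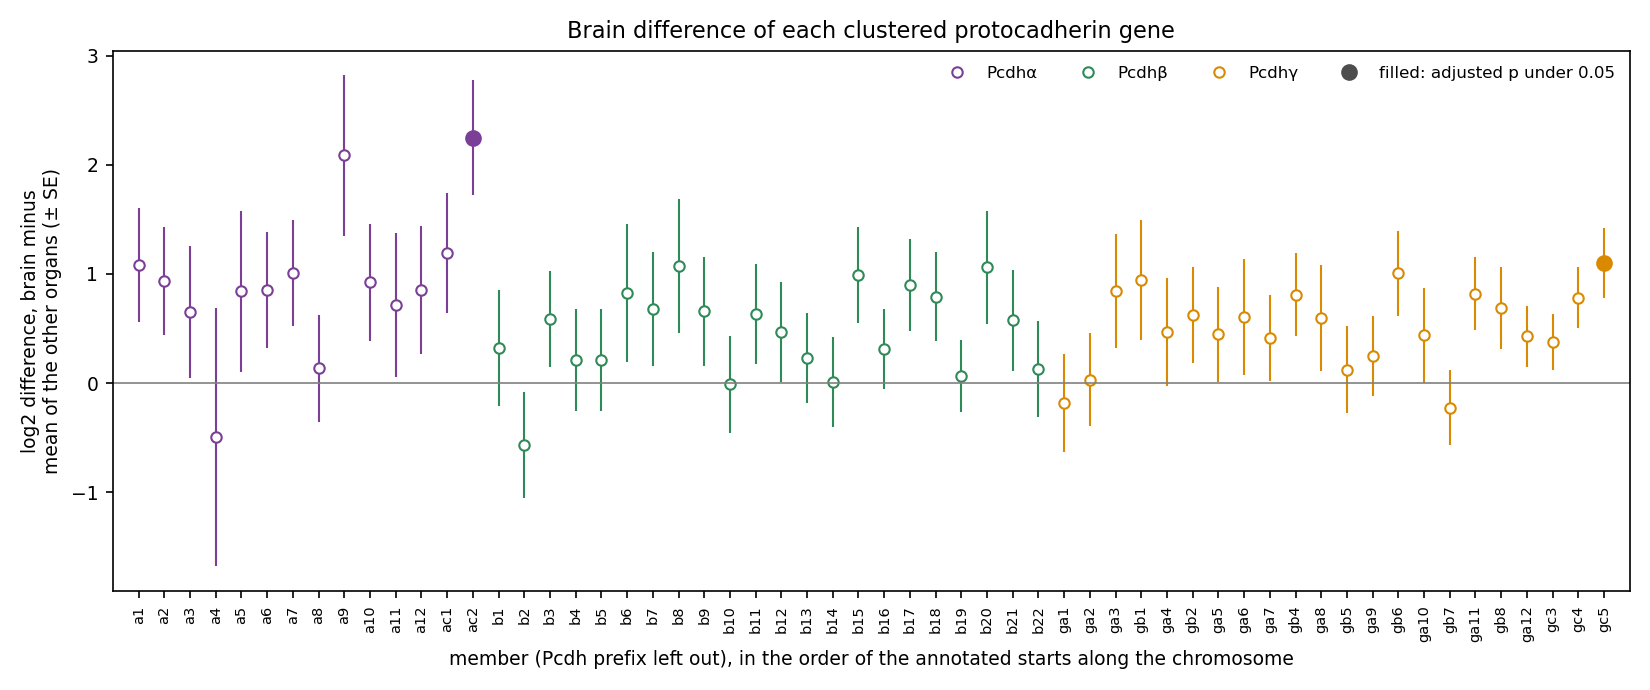
Fitted log2 difference of brain from the mean of heart, kidney and liver for each of the 58 members, grouped by cluster, with bars of 1 standard error. Most points lie above 0, and Pcdhac2 at 2.25 and Pcdhgc5 at 1.10 are the 2 that passed the test.

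Pcdhac2, the second C-type gene of the alpha cluster, showed the widest gap. It had 78 and 56 reads in FFPE and frozen brain, against 2 and 12 in heart, 16 and 26 in kidney and 6 and 8 in liver. On the deposited log2 scale these were 5.27 and 4.90 in brain, against 1.65 and 3.07 in heart, 3.55 and 3.79 in kidney and 2.80 and 2.18 in liver. Both brain values lay above all others, and kidney came next. The exact 95% binomial intervals ran from 61.7 to 97.3 reads for the 78 in FFPE brain and from 0.24 to 7.22 for the 2 in FFPE heart, and cover counting error only. The difference was 2.25 ± 0.53 (SE; limma adjusted p 0.0085). It kept its direction when either brain profile was left out, at 1.88 without FFPE brain and 2.61 without frozen brain, but no longer passed, with adjusted p 0.396 and 0.192. With 2 reads added in place of 0.5 it was 2.11 and missed the threshold as well (adjusted p 0.109).

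Pcdhgc5, the C-type gene at the end of the gamma cluster, had 108 and 96 reads in FFPE and frozen brain, against 28 and 30 in heart, 29 and 52 in kidney and 20 and 42 in liver. Its log2 values were 5.74 and 5.67 in brain, against 5.16 and 4.35 in heart, 4.39 and 4.78 in kidney and 4.46 and 4.50 in liver. The brain values were close to each other and above all others, and the difference was 1.10 ± 0.32 (SE, limma adjusted p 0.035). Over the 17 alternatives run, the difference stayed between 0.84 and 1.28. The call was lost without either brain profile (adjusted p 0.387 without FFPE brain and 0.538 without frozen brain), without frozen heart (0.088), without FFPE kidney (0.104), with 2 reads added in place of 0.5 (0.138), without the preservation term (0.053) and with the olfactory receptors held level (0.247).

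The other C-type genes did not pass in brain. Pcdhac1 had 45 and 32 reads in FFPE and frozen brain, against 13 and 14 in heart, 17 and 7 in kidney and 19 and 4 in liver. Relative to depth it was close in FFPE brain and FFPE liver, at log2 values of 4.49 and 4.39, and the brain difference was 1.19 ± 0.55 (limma adjusted p 0.25). Pcdhgc4 had 126 and 107 reads in FFPE and frozen brain, against 42 and 82 in heart, 65 and 50 in kidney and 20 and 40 in liver, with a difference of 0.78 ± 0.28 (limma adjusted p 0.102). Without frozen liver that difference was 0.83 and passed, at adjusted p 0.040. Pcdhgc3, which had up to 138 reads, the highest count of any member, had 106 and 138 in FFPE and frozen brain, against 55 and 112 in heart, 72 and 93 in kidney and 30 and 51 in liver. Its heart log2 values of 6.12 and 6.24 exceeded its brain values of 5.71 and 6.19 within each preservation, and its brain difference was 0.37 ± 0.25.

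**Figure D3:**
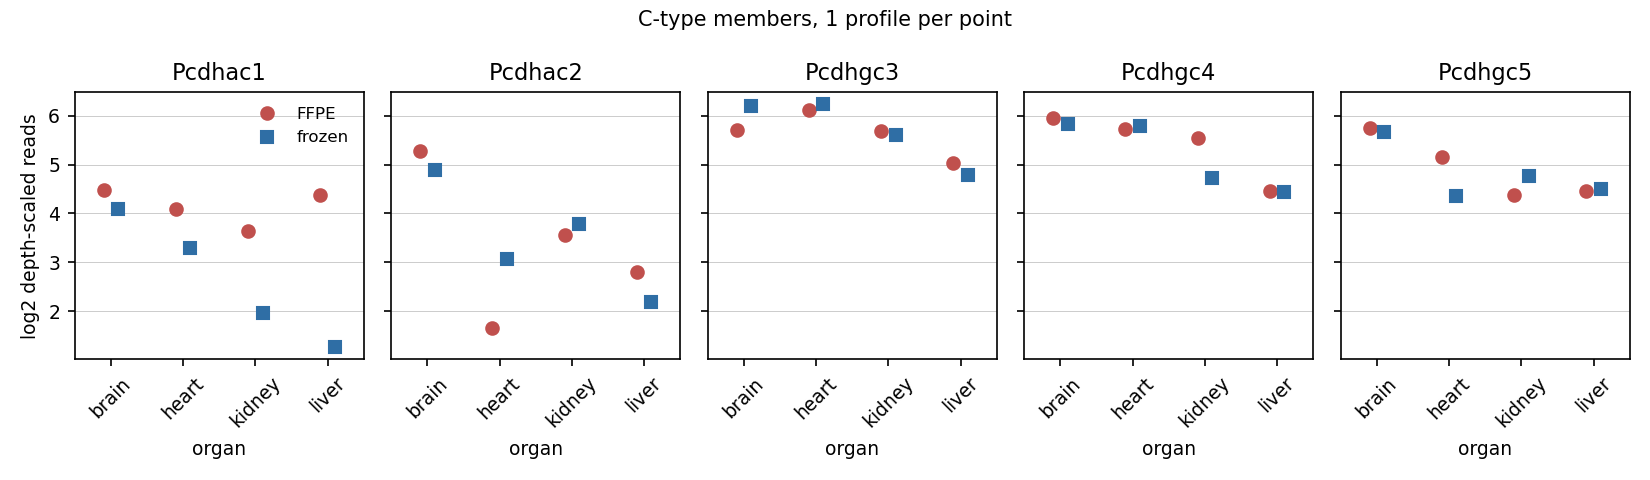
Deposited log2 values of the 5 C-type genes in the 8 profiles. Pcdhac2, Pcdhgc4 and Pcdhgc5 are highest in both brain profiles, Pcdhgc3 is as high in heart as in brain, and Pcdhgc3 and Pcdhgc4 are low in both liver profiles.

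Among the 12 variable alpha genes none was called in brain by limma (3 at an unadjusted p under 0.05), with a smallest adjusted p of 0.095 for Pcdha9. That gene, singled out after its values were seen, had 30 and 48 reads in FFPE and frozen brain, against 14 and 13 in heart, 2 and 16 in kidney and 0 and 13 in liver. The brain difference was 2.09 ± 0.73, and it passed without FFPE heart (adjusted p 0.035) and without frozen liver (0.010). Relative to depth, FFPE heart at a log2 value of 4.19 lay between frozen brain at 4.68 and FFPE brain at 3.91. The 0 in FFPE liver allows up to 3.47 per 1000000 reads in genes. The remaining variable alpha genes other than Pcdha4 had between 18 and 45 reads in each brain profile. Pcdha8 differed least, with 35 and 20 reads in FFPE and frozen brain, against 16 and 9 in heart, 22 and 28 in kidney and 8 and 25 in liver, a difference of 0.13. Pcdha4, whose start lies beside that of Gm37013, had 1 and 0 reads in FFPE and frozen brain, against 1 and 0 in heart, 0 and 3 in kidney and 0 and 0 in liver, too few for a fold.

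The beta genes are single exons of 2340 to 5271 bases, so their levels can be compared per length. Their median was 5.07 and 5.06 RPM per kilobase in FFPE and frozen brain, against 3.64 and 3.30 in heart, 3.44 and 4.40 in kidney and 3.91 and 3.38 in liver. The olfactory receptors had medians of 4.24 and 4.38 in FFPE and frozen brain, against 2.68 and 2.86 in heart, 3.01 and 4.47 in kidney and 3.43 and 3.36 in liver. The beta median was 0.984 to 1.36 times the receptor median, and in none of the 8 profiles did any of the 22 beta genes exceed the receptors' 95th percentile. The receptors are shorter, so their counts are smaller and spread more widely. The 95th percentile alone therefore does not place the beta genes at the receptors' level, and whether both sets differ in level was not tested. Averaged over the profiles, Pcdhb14 was highest at 5.46 and Pcdhb6 lowest at 2.49 RPM per kilobase.

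**Figure D4:**
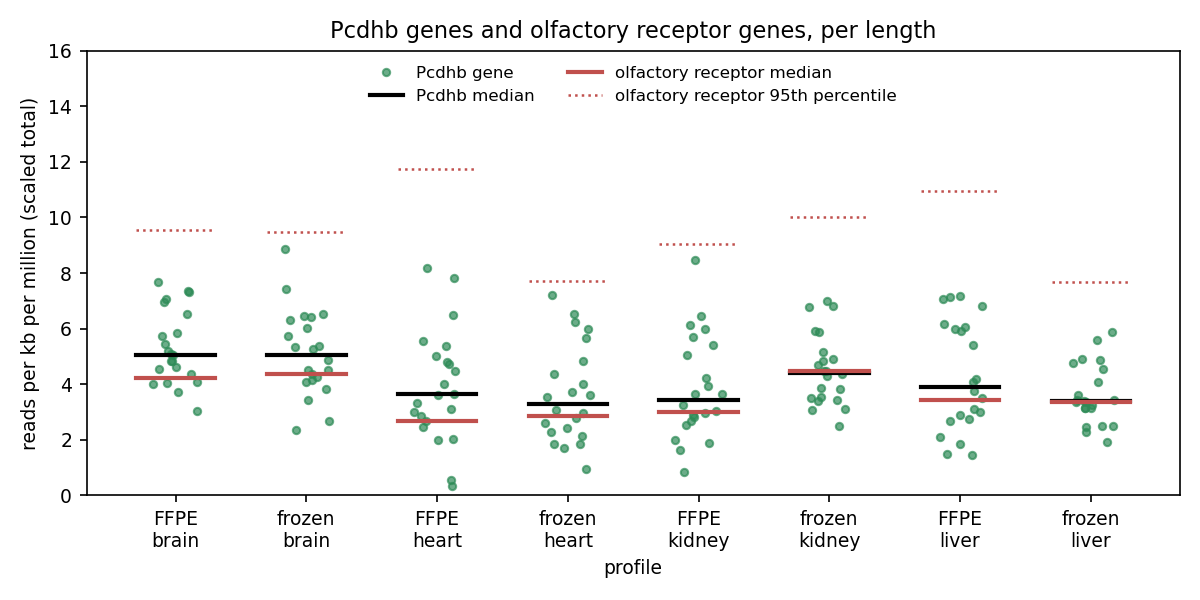
Pol II level in RPM per kilobase of the 22 beta genes in each profile, beside the median and the 95th percentile of 903 olfactory receptor genes of 900 to 1100 bases. The beta medians lie close to the receptor medians and no beta gene lies above the receptors' 95th percentile.

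None of the 22 beta genes was called in brain by limma, 2 were under 0.05 without adjustment, and the smallest adjusted p was 0.219. The smallest differences were those of Pcdhb14 and Pcdhb10. Pcdhb14 had 51 and 25 reads in FFPE and frozen brain, against 10 and 29 in heart, 41 and 34 in kidney and 12 and 38 in liver, a difference of 0.01. Pcdhb10 had 23 and 31 reads in FFPE and frozen brain, against 7 and 11 in heart, 24 and 38 in kidney and 19 and 26 in liver, a difference of -0.01. For both genes the brain values lay inside the range of the other organs.

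In the gamma cluster the 12 A-type genes had a median brain difference of 0.44 and the 7 B-type genes one of 0.69, and limma called none of either type (1 A-type and 2 B-type genes were under 0.05 without adjustment). Pcdhgb6 came nearest, at 1.00 ± 0.39 (limma adjusted p 0.143), with 59 and 61 reads in FFPE and frozen brain, against 29 and 37 in heart, 18 and 12 in kidney and 16 and 17 in liver. Brain and heart were both high for it, and kidney and liver low. Pcdhga2 and Pcdhgb5 differed least in size. Pcdhga2 had 29 and 35 reads in FFPE and frozen brain, against 16 and 25 in heart, 13 and 21 in kidney and 29 and 27 in liver, a difference of 0.03. Pcdhgb5 had 36 and 38 reads in FFPE and frozen brain, against 13 and 30 in heart, 27 and 22 in kidney and 23 and 27 in liver, a difference of 0.12.

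The other organs were each set against the mean of the remaining ones. All of these comparisons use the same 8 profiles, so they are not independent of the brain result. In liver, 2 gamma C-type genes fell, Pcdhgc4 by 1.15 ± 0.28 (limma adjusted p 0.011) and Pcdhgc3 by 1.02 ± 0.25 (limma adjusted p 0.013). That is 2 of 58 lower, where 3.39% of all genes were, and none higher, where 4.52% were. Of all 26758 genes 5167 were under 0.05 without adjustment, and of the 58 members 14 were. The count called lower rose without both FFPE heart and FFPE liver, a setting whose share of all genes called is not given here. In liver 10 of 14 alpha genes were below 0, with a median of -0.75, 20 of 22 gamma genes, with a median of -0.71, and 13 of 22 beta genes, with a median of -0.05. Of all genes tested 13813 of 26758 were below 0, with a median of -0.02. Both liver profiles lay below all 6 others for 10 members, 7 of them gamma genes, where 6.16% of all genes did so. The Pcdhgc4 call was lost without FFPE liver (adjusted p 0.061), and the Pcdhgc3 call without frozen brain (0.076) or frozen liver (0.196). Both missed the threshold with the receptors held level, at 0.100 for Pcdhgc4 and 0.150 for Pcdhgc3, and with 2 reads added, at 0.094 for Pcdhgc4 and 0.084 for Pcdhgc3.

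In heart limma called 0 members, with 10 under 0.05 without adjustment and a smallest adjusted p of 0.102. Among all 26758 genes 3.06% were called higher and 2.18% lower, and 4830 were under 0.05 without adjustment. The gamma genes had a median heart difference of 0.31, with 18 of 22 above 0, and the beta genes one of -0.19, with 7 of 22 above 0. In kidney limma again called 0 members, with 5 under 0.05 without adjustment and a smallest adjusted p of 0.115. Among all genes 0.919% were called higher and 0.456% lower, and 2848 were under 0.05 without adjustment.

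Brain was also set against each organ alone. Against heart, 1 member was called higher, where 2.78% of all genes were: Pcdhac2 at 2.73 ± 0.65 (limma adjusted p 0.010). The gamma genes had a median of 0.06 in that comparison, the beta genes 0.52 and the alpha genes 0.61. Against kidney 1 member was called, where 1.86% of all genes were: Pcdhgb6 at 1.74 ± 0.48 (limma adjusted p 0.042), a call lost in 10 of 16 alternatives. Against liver 5 were called, where 3.97% of all genes were, namely Pcdhgc4 at 1.45, Pcdhac2 at 2.59, Pcdha9 at 3.32, Pcdhgc3 at 1.05 and Pcdhgc5 at 1.22, and the gamma median was 1.05. The count against liver rose without FFPE liver, and without both FFPE heart and FFPE liver. The share of all genes called in these settings is not given here. The Pcdha9 value against liver rests on FFPE liver, where it had 0 reads: without that profile it was 1.79 (limma adjusted p 0.219). The Pcdhac2 value against heart was 1.89 without FFPE heart, where it had 2 reads (limma adjusted p 0.181). None of these single-organ calls passed when FFPE brain or frozen brain was left out, with limma adjusted p between 0.093 and 0.750. No member was called lower in brain, with backgrounds of 3.88%, 1.92% and 5.35% against heart, kidney and liver. Without adjustment, in either direction, 7, 10 and 19 of 58 members were under 0.05. Of all 26758 genes 4862, 3603 and 5448 were.

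Both preservations gave a brain difference above 0 for most members: 51 of 58 in FFPE, with a median of 0.52, and 50 of 58 in frozen tissue, with a median of 0.55. In 44 of 58 it was above 0 in both, where 33.2% of all genes were. Brain was the highest organ in both preservations for 15 members, where 11.3% of all genes were. The size of the difference was only loosely shared: across the 58 members, Pearson's r between FFPE and frozen was 0.30, against 0.38 across all genes, with genes that are not independent replicates. For Pcdhac2 the difference was 2.61 in FFPE and 1.88 in frozen tissue, and for Pcdhgc5 it was 1.07 in FFPE and 1.12 in frozen tissue. By the design, each equals the fitted difference with the brain profile of the other preservation left out. Agreement between preservations and leaving out a brain profile are therefore not separate checks. The term for brain and FFPE together called 0 members in limma, and 1 was under 0.05 without adjustment. Of all 26758 genes 0 were called and 397 were under 0.05 without adjustment.

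**Figure D5:**
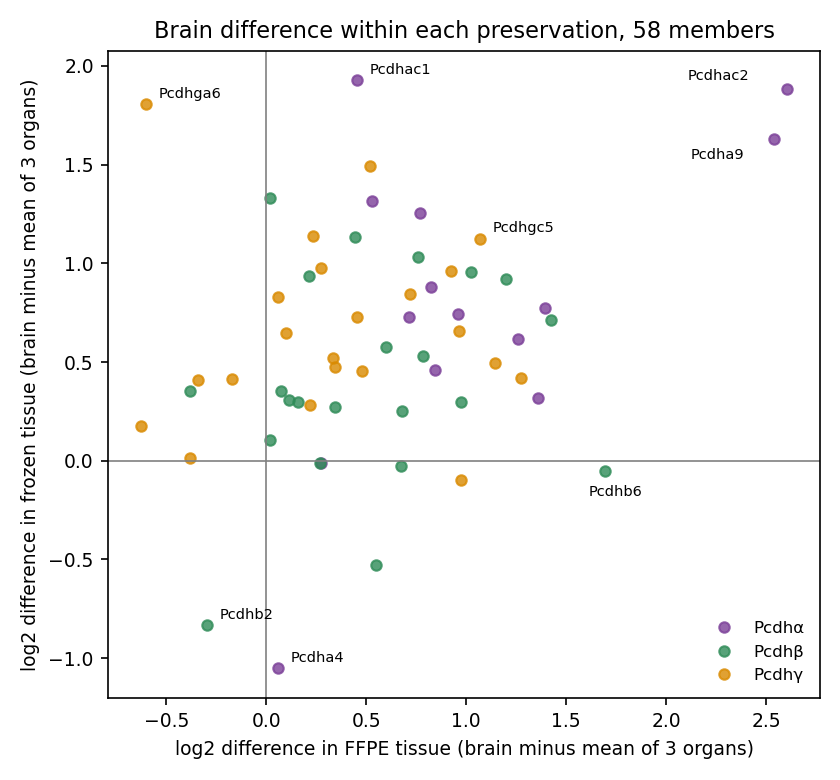
Brain difference of each member within FFPE profiles and within frozen profiles, on the log2 scale, each as 1 brain profile minus the mean of 3 others. Most points lie in the quadrant above 0 in both, with a wide scatter.

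FFPE tissue was also set against frozen tissue with organ as a term. Limma called 0 members, with 6 under 0.05 without adjustment and a smallest adjusted p of 0.221. Of all 26758 genes 0.153% were called higher in FFPE and 0.422% lower, and 2494 were under 0.05 without adjustment. The members' median difference was 0.11 and 37 of 58 were above 0. The smallest adjusted p belonged to Pcdhac1, at 1.50 ± 0.48, whose FFPE minus frozen log2 difference was 0.39 for brain, 0.80 for heart, 1.66 for kidney and 3.13 for liver. All 4 organs had the higher value in FFPE, and the liver pair rests on 19 and 4 reads in FFPE and frozen liver.

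Other genes of the pathway were compared from lists. Of 12 protocadherins outside the clusters, 2 rose in brain, Pcdh10 by 1.19 ± 0.24 and Pcdh9 by 1.01 ± 0.29, and Pcdh12, known from vascular endothelium, fell by 0.85 ± 0.23 (limma adjusted p 0.0020, 0.032 and 0.022). Their median was 0.45. Of 11 listed cadherins that are not protocadherins, 1 rose, Cdh8 by 1.47 ± 0.35 (limma adjusted p 0.0093), and the median was 0.22. Of 13 regulators, including the architectural proteins CTCF and cohesin and the methyltransferase Dnmt3b, limma called 0, with 1 of them under 0.05 without adjustment, and the median was -0.04. Rest, a repressor of neuronal genes, was at -0.65 (limma adjusted p 0.124) and Ctcf at -0.04. Of 8 partners and downstream proteins 2 rose, Wasf1 by 1.39 ± 0.35 and Cyfip2 by 0.88 ± 0.27 (limma adjusted p 0.015 and 0.049), with a list median of 0.24. Both encode parts of the WAVE complex, which drives actin branching. So does Nckap1, which was at 0.33 ± 0.25 and did not pass (limma adjusted p 0.567). Cyfip2 was also high in kidney, at log2 values of 6.98 and 7.65 in FFPE and frozen kidney. Its values in FFPE and frozen brain were 7.22 and 7.26.

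Genes beside the clusters were compared as well. Of 16 listed, 15 lie on chromosome 18 within 577 kb of a cluster, and Relch lies elsewhere. Of the 16, 0 were called higher and 1 lower in brain, Arap3 at -0.93 ± 0.24 (limma adjusted p 0.015), and the median over the 15 on chromosome 18 was -0.01. Of the non-members, the genes whose 8 values followed the members' median value most closely were Agfg1, Gas7 and Tppp2. Their Pearson's r was 0.982, 0.981 and 0.978 over the 8 profiles. They were picked as the highest of all tested non-members, so r is high by selection and shows no link to the members.

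The organ labels were checked against cell type markers. Of 8 neuron markers 8 rose in brain, with summed log2 levels of 9.53 and 9.63 in FFPE and frozen brain against 6.78 to 7.96 in the other profiles, so neuronal genes moved with the brain result; their part in it was not tested. Among 5 oligodendrocyte markers 2 rose in brain, with a median of 1.03, and among 5 astrocyte markers 1 rose and 1 fell, with a median of 0.28. Lower in brain were 3 of 5 cardiomyocyte, 1 of 5 proximal tubule, 4 of 5 hepatocyte and 2 of 5 endothelial markers. Of 3 erythroid and 4 fibroblast markers limma called 0, with 0 of the erythroid and 2 of the fibroblast markers under 0.05 without adjustment. Hepatocyte markers summed to 9.79 in FFPE liver and 12.45 in frozen liver, against at most 6.95 in the other organs, and cardiomyocyte markers to 11.19 and 12.37 in FFPE and frozen heart, against at most 6.64 elsewhere.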

How the data were processed

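The deposited values are log2 values per gene, 1 column for each organ and preservation, made by the authors with Bowtie2, featureCounts and limma on mm10, per the submitters' processing notes. The sources used here give no tool version and no input correction. A column may hold 1 library of its group or the pair combined, which no source settles. The deposited log2 values follow log2 of reads plus 0.5 over a scaled total, and whole reads could be recovered for 100% of them (tolerance 1e-06).

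From these values, genes reaching log2 0 in 2 or more profiles were fitted in limma 3.58.1 (R 4.3.3) with mean-variance trend, organ and preservation as terms, and Benjamini-Hochberg adjustment over all 26758 genes; the fit left 3 residual degrees of freedom. It was also run on simulated data with a fixed spread and no effect of preservation, which cannot show how far the calls here hold. Since separate animals are not labelled, p-values reflect only profile-to-profile spread, which may be technical. Members, lists and tests were chosen with earlier results of these data known. Named were the C-type genes, called members and, per cluster, the 2 smallest brain differences; from each list, up to 4 called genes and 2 others; and the 3 genes of most similar pattern. Other named members were picked after their values were seen. Gene positions are those of RefSeq on GRCm38.p6. Alternatives in filter, scaling, added reads, weights, terms and profiles were tried. Input libraries are not analysed here.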

Additional observations from a re-analysis of the deposited data

Results flagged for a closer look

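Pcdha4 in frozen kidney stood apart from the other frozen profiles, with a log2 value of 0.87 against -1.92, -1.91 and -1.58. This is 3 reads in frozen kidney against 0 in frozen brain, frozen heart and frozen liver, and the gap took 0.875 of the range, above Dixon's critical value for 4 values. It was 1 of 28 groups of 4 profiles examined, and chance sets off about 1 in 20 such groups. The other 3 values come from 0 reads and differ only by depth, so a few reads were enough to exceed that value. The exact 95% binomial intervals overlap, at 0.62 to 8.77 reads for the 3 reads in frozen kidney and 0 to 3.69 for a count of 0.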

How the results depend on the processing

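The ratios of the mean cluster sums, brain over the other organs, kept their direction under every alternative run. With olfactory receptor genes held level, a scaling chosen after seeing the data, the beta ratio moved to 1.10 and the gamma ratio to 1.14. The gamma sums of both heart profiles and FFPE kidney then lay above both brain profiles. The 2 members called higher in brain became 0 with 2 reads added, 1 without the preservation term, 1 with the receptors level, 11 without FFPE heart and FFPE liver together (also chosen after seeing the data) and 0 to 4 with single profiles left out, 0 of them without either brain profile; of the merged clusters, 1 passed, alpha. Across the planned settings 50 to 54 members were above 0 in brain, not the same ones throughout, and 43 with the receptors level, which moved the median of all genes to -0.25 and of members to 0.38. Leaving out mitochondrial genes and scaling factors moved the all-gene median to -0.14 in liver and 0.11 in FFPE against frozen. Without FFPE heart and FFPE liver the calls were 4 in heart, 9 in liver, 5 against heart, 6 against kidney and 12 against liver. With 2 reads added they were 0 in liver and against each single organ. With the receptors level they were 1 in liver, 0 against kidney and 2 against liver. Against kidney they were also 0 without the filter and without mitochondrial genes, and in kidney 1 after quantile normalization. Leaving out single profiles gave 0 to 2 calls in heart and 0 to 2 in kidney (2 in both without frozen liver), 1 to 3 in liver (1 without frozen brain, 3 without FFPE brain or frozen heart), 0 to 3 against heart and 0 to 3 against kidney (3 in both without frozen liver), and 0 to 8 against liver (0 without frozen brain, 8 without FFPE liver). FFPE against frozen and the term for brain and FFPE together called 0 throughout; that term could not be fitted without both FFPE heart and FFPE liver. Where profiles of an organ were left out, the lone profile was taken to vary like the others. The share of all genes called in each alternative is not given here, so these counts of members have no background beside them.

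Small differences changed sign. In brain, leaving out single profiles gave -0.14 to 0.40 for Pcdha8, -1.17 to 0.058 for Pcdha4, -0.53 to 0.55 for Pcdhb14, -0.38 to 0.355 for Pcdhb10, -0.34 to 0.41 for Pcdhga2 and -0.17 to 0.42 for Pcdhgb5. With the receptors level, Pcdha8 was at -0.12, Pcdhb14 at -0.24, Pcdhga2 at -0.22 and Pcdhgb5 at -0.13. Pcdhb14 was at -0.040 with voom weights and at -0.46 without FFPE heart and FFPE liver. Pcdhb10 was at 0.075 without mitochondrial genes, 0.0044 with 0.5 reads added in proportion to depth, 0.019 with voom weights and 0.25 without FFPE heart and FFPE liver. For FFPE against frozen, leaving out single profiles gave -0.43 to 0.25 for Pcdhac2, -0.17 to 0.072 for Pcdhgc3 and -0.12 to 0.28 for Pcdhgc5. Pcdhac2 was there at 0.12 with voom weights and at 0.068 without FFPE heart and FFPE liver, Pcdhgc3 at 0.052 without mitochondrial genes, and Pcdhgc5 at -0.16 without FFPE heart and FFPE liver. The causes were not tested. No paired analysis was possible because the columns carry no replicate number. Depth limits the alpha genes most, and reads shared between overlapping genes could not be separated.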
